A study of Mus musculus with 16 samples.

Results

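The natriuretic peptide system of the mouse left ventricle was followed through 8 genes: the peptide hormones Nppa, Nppb and Nppc, the receptors Npr1, Npr2 and Npr3, and the processing proteases Corin and Furin. Members were all non-control probes of the array whose gene name, or an older synonym of it, is one of these 8. They came to 15 of 41174 probes and 8 of 27670 gene names. 7 of the 8 genes had a probe well above background on at least 4 of 16 arrays and were tested among 15669 genes. Npr1 did not reach that limit.

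The study measured 16 left ventricles on 1-colour arrays, 4 per group, with 2 males and 2 females in each. Wild-type littermates (WT) and mice carrying NOS3, endothelial nitric oxide synthase, under the alpha-myosin heavy chain promoter (alpha-MHC-NOS3, called NOS3-TG here) were each measured at baseline and 10 weeks after TAC. TAC, transverse aortic constriction, narrows the aorta and loads the left ventricle with pressure. All groups had the C57BL/6 N background and were matched for age and weight, with no age given. Baseline mice were intact, with no sham operation, so the surgery itself is part of every TAC difference. The promoter drives the transgene in cardiomyocytes, whereas the natural enzyme sits mainly in endothelium. Levels below are log2 values of the processed signal relative to the 75th percentile of the same array, and a difference of 1 is a doubling.

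Atrial natriuretic peptide (from Nppa) and B-type natriuretic peptide (from Nppb) are hormones that heart muscle cells release when stretched. Adult atria hold most of the Nppa mRNA of a healthy heart, and the ventricle raises both genes under load, which is why they serve as markers of hypertrophy and failure. Corin cuts the Nppa precursor and furin the precursors of Nppb and Nppc. The mature peptides bind the guanylyl cyclase receptors Npr1 and Npr2, which make cyclic GMP, the same messenger that nitric oxide raises through soluble guanylyl cyclase, while Npr3 clears the peptides from the circulation.

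The promoters of the pair of genes that carry the largest TAC differences are shown first, because both genes lie next to each other on chromosome 4 and rose together. The RefSeq window for Nppa, the 250 bases before its start, is chr4:148000472-148000721 on the plus strand of GRCm38.p6. The window for Nppb is chr4:147985650-147985899 on the plus strand of the same build. Capitals mark the letters of a searched motif on either strand.
Nppa: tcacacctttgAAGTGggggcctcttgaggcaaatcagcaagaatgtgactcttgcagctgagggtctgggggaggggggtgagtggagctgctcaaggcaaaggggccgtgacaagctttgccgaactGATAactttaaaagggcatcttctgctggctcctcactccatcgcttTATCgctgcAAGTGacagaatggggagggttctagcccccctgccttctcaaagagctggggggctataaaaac
Nppb: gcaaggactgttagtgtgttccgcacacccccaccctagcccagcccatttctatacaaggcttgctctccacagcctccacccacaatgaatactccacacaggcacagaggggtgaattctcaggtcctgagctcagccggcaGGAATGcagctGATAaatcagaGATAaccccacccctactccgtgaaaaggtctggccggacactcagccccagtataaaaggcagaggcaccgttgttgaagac
Both windows hold 2 matches to GATA, the core letters read by Gata4 and Gata6. In Nppa 1 lies on each strand, and in Nppb both lie on the plus strand, at 94 to 91 and 83 to 80 bases before the start. Nppa further holds 2 matches to AAGTG, part of the site of Nkx2-5, and Nppb holds 1 match to CATTCC, the core of TEAD sites, on the minus strand. No matched letters overlap another motif. TGACGTCA, TGANTCA, the CArG box and the MEF2 site were searched on both strands as well and are not in these letters. Of 32851 promoter windows of this length, 53.6% hold GATA, 40.7% AAGTG and 12.6% CATTCC, so single matches are common.

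The arrays differed little in brightness, with a 75th percentile of 1053 to 1491 units. On a typical array 52.5% of probes passed the background limit, and 3 arrays lay far from that median: NOS3-TG TAC replicate 4 at 68.0%, NOS3-TG baseline replicate 2 at 44.8% and NOS3-TG TAC replicate 3 at 46.2%. Nos3 checked the genotype labels: it was 95.9-fold higher in NOS3-TG than in WT at baseline and 51.7-fold higher after TAC. Its log2 level also differed with TAC, by 0.41 in WT (adjusted p = 0.0195, limma) and by -0.48 in NOS3-TG (adjusted p = 0.0207). The NOS3-TG groups overlapped. Slides held either baseline or TAC arrays, with both genotypes and sexes on each, and slide 3, a TAC slide, was scanned on another day.

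All 9 ventricular cardiomyocyte markers were well above background on all 16 arrays. Some atrial markers varied widely within every group. Myl7, the atrial regulatory light chain, ranged from a log2 level of -4.38 to 7.02 over the arrays, and Sln, atrial sarcolipin, from -6.56 to 4.83, while Gja5 ranged only from -0.19 to 0.48 and Nr2f2 from 0.70 to 2.00. The atrial marker level, the mean over 7 atrial markers of their centred log2 levels, ran from -2.44 to 2.56 in WT baseline and from -2.82 to 2.22 in NOS3-TG baseline. After TAC it ran from -2.21 to 1.48 in WT and from -2.17 to 1.53 in NOS3-TG, and there it split by sex: the 4 males lay at -0.16 to 1.53 and the 4 females at -2.21 to -1.99. 2 of the 10 listed markers, Bmp10 and Nr2f1, were not well above background on any array, and Tbx5 was left out as a listed regulator. Since Nppa is an atrial gene, this level is set beside its results below.

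Nppb, the B-type peptide, rose with TAC in both genotypes. In WT baseline hearts its 4 log2 levels were 4.52, 3.89, 4.96 and 4.66. In WT TAC hearts they were 7.75, 6.87, 7.78 and 7.41. Every TAC array lay above every baseline array, by more than the spread within either group. The difference was 2.94 ± 0.29 on the log2 scale (SE, limma, 4 arrays per group), or 7.69-fold, with an adjusted p of 7.85e-05, and its rank by rise was 17 among 15669 genes.

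In NOS3-TG baseline hearts the log2 levels of Nppb were 5.14, 6.10, 5.09 and 5.85, and in NOS3-TG TAC hearts 7.86, 7.50, 7.33 and 7.81. Again the groups did not overlap. Nppb rose by 2.08 ± 0.29, or 4.22-fold (adjusted p = 0.0011, limma). A second Nppb probe gave rises of 2.75 in WT (adjusted p = 0.000119) and 1.80 in NOS3-TG (adjusted p = 0.00258).

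**Figure D1:**
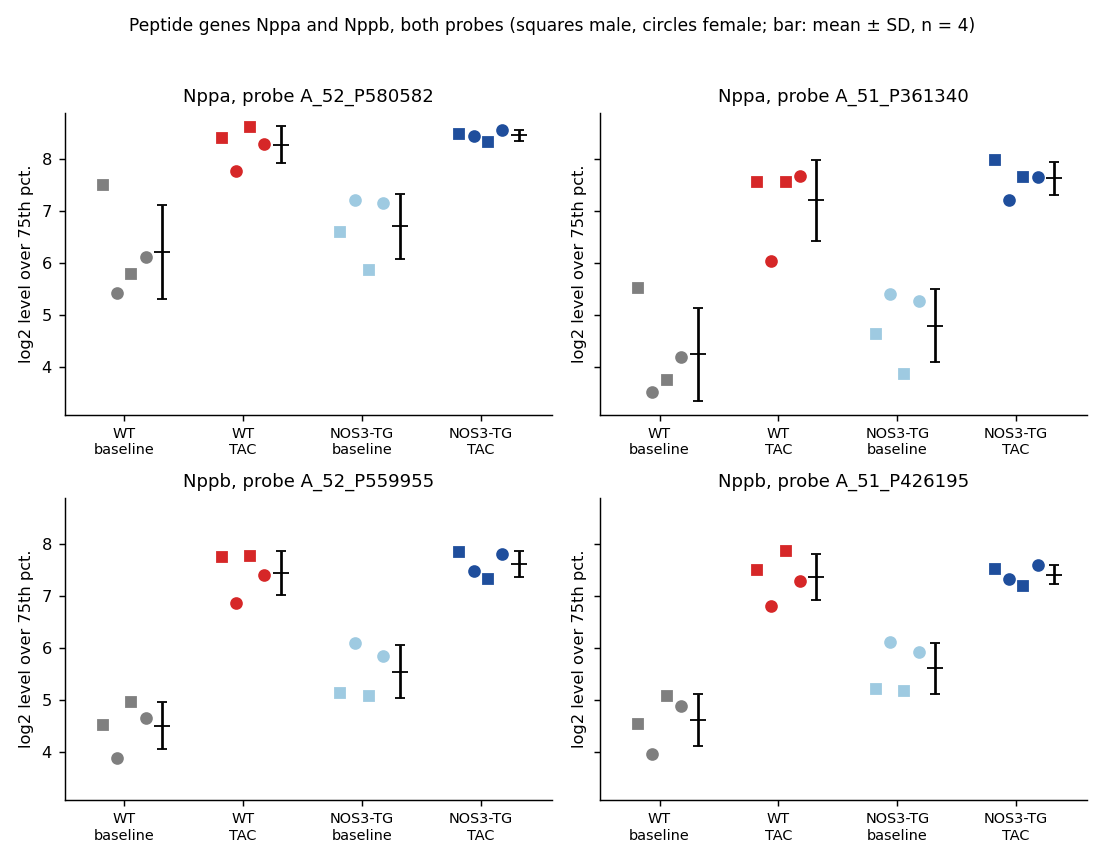
Log2 level (over the 75th percentile of the array) of both Nppa probes and both Nppb probes on each array, by group. Squares are males, circles are females, and bars give the mean ± SD of 4 arrays. On all 4 probes every TAC array lies above every baseline array of its genotype, and on the first Nppb probe the WT baseline arrays lie between 3.89 and 4.96.

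Nppa, the atrial peptide, rose in both genotypes from an uneven baseline. Its log2 levels in WT baseline hearts were 7.50, 5.43, 5.80 and 6.12. In WT TAC hearts they were 8.40, 7.78, 8.61 and 8.30. The groups did not overlap, but WT baseline replicate 1 came close to the lowest TAC array and was also the array with the highest atrial marker level. TAC raised Nppa in WT by 2.06 ± 0.39, or 4.18-fold (adjusted p = 0.00263, limma).

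In NOS3-TG baseline hearts Nppa stood at log2 levels of 6.59, 7.21, 5.87 and 7.16, and in NOS3-TG TAC hearts at 8.49, 8.45, 8.32 and 8.56. The TAC arrays lay above the baseline arrays, with an SD of 0.10 against 0.63, and of 0.32 against 0.70 on the second Nppa probe. Nppa rose by 1.75 ± 0.39, or 3.36-fold (adjusted p = 0.0144, limma). That call was lost with the scan day in the fit (adjusted p = 0.0587) and without the 3 arrays far in share above background (adjusted p = 0.0847). With slide as a random block the adjusted p was 0.00387 in WT and 0.0201 in NOS3-TG for Nppa, and 0.000122 and 0.00174 for Nppb. Each slide held only baseline or only TAC arrays, so this fit cannot take a slide difference out of the TAC effect.

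The 2 Nppa probes measured the same transcript at different brightness, each on 10 spots per array. The second probe rose by 2.97 ± 0.47 in WT (adjusted p = 0.00102) and by 2.83 ± 0.47 in NOS3-TG (adjusted p = 0.00337), more than the first in both genotypes. The second minus the first probe moved with TAC by 0.90 in WT and by 1.08 in NOS3-TG, with no overlap between conditions. Each has p = 0.029 in a two-sided exact permutation test, the smallest that 4 against 4 arrays allow, and this comparison was chosen after the values were seen. Spots of the first probe reached 44.4% to 83.8% of the scanner's saturation value on TAC arrays, and those of the second 13.4% to 59.3%. The size of the Nppa rise therefore depends on the probe, while its direction does not. Whether the brighter probe was compressed was not tested.

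Whether Nppb and Nppa rose by unequal amounts likewise depended on the probe. With the first Nppa probe, Nppb minus Nppa rose with TAC by 0.88 in WT and 0.33 in NOS3-TG (both p = 0.114, adjusted p = 0.114, two-sided exact permutation test). With the second Nppa probe it changed by -0.02 in WT (p = 1.0) and by -0.76 in NOS3-TG (p = 0.029, adjusted p = 0.057, exact permutation test). Neither genotype gave a difference that held with both probes.

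3 of the 7 tested members rose with TAC in WT and none fell, where 28.4% of all genes tested were called, 10.9% higher and 17.6% lower, and where all TAC arrays lay above all baseline arrays in 10.2% of genes. 1 of the 3, Nppc, passed the background limit only through TAC arrays and had to differ, so 2 of the other 6 rose. In NOS3-TG, 3 of 7 rose (Nppb, Nppa and Npr3) and none fell, where 11.8% of all genes were called, 6.46% higher and 5.35% lower, and where all TAC arrays lay above in 9.18%. Without Nppc the median difference over the other 6 members was 0.03 in WT and 0.14 in NOS3-TG, against -0.06 and 0.00 over all genes.

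**Figure D2:**
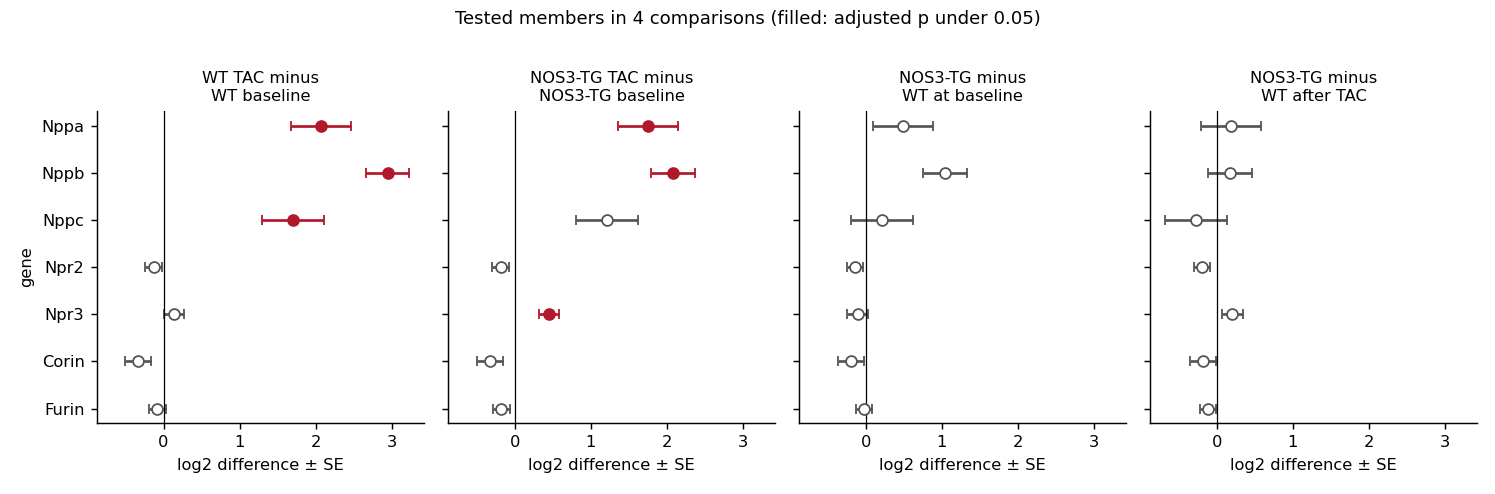
Log2 difference ± SE (limma, 4 arrays per group) of the 7 tested members in the TAC comparison of each genotype and in the genotype comparison of each condition. Filled red points have an adjusted p under 0.05. Nppb and Nppa are filled in both TAC comparisons, Nppc only in WT and Npr3 only in NOS3-TG, and no point is filled in the genotype comparisons.

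The atrial marker level averaged -0.37 on TAC arrays against 0.25 on baseline arrays in WT, and -0.70 against 0.81 in NOS3-TG, so its means moved opposite to Nppa. With the atrial marker level of each array added to the fit, chosen after seeing the data, Nppa rose by 2.18 in WT (adjusted p = 0.000863) and by 2.03 in NOS3-TG (adjusted p = 0.00435). Nppb rose by 2.99 and 2.19 (adjusted p = 9.54e-05 and 0.00141). Over the 8 baseline arrays, both genotypes together, the atrial marker level and Nppa had r = 0.66 (exact permutation p = 0.0807, adjusted p = 0.242) and rho = 0.74 (exact permutation p = 0.0458, adjusted p = 0.137). Without the 2 arrays farthest in atrial level r was 0.92 (exact permutation p = 0.0236). Over the 8 TAC arrays r was 0.34 and rho 0.26 (exact permutation p = 0.499 and 0.536, adjusted p = 0.516 and 0.703). 6 such relations were computed, adjusted together.

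For Nppb the relation to the atrial level was r = 0.27 and rho = 0.21 over baseline arrays (exact permutation p = 0.516 and 0.619). Over TAC arrays it was r = 0.36 and rho = 0.17 (exact permutation p = 0.405 and 0.703), and no adjusted p of these passed 0.05. Among the TAC arrays sex and atrial level cannot be told apart in these relations. Nppa and Nppb went together over the 8 TAC arrays, with r = 0.93 (exact permutation p = 0.00315, adjusted p = 0.0189) and rho = 0.86 (exact permutation p = 0.0107, adjusted p = 0.0643). Without WT TAC replicates 2 and 3, the arrays farthest in Nppa, r was 0.81 (exact permutation p = 0.0736, n = 6), so the relation rests in part on these arrays. With the second Nppa probe, which lies farther from saturation, r over TAC arrays was 0.83 and rho 0.55 (exact permutation p = 0.0299 and 0.171). Without the 2 arrays farthest on that probe, NOS3-TG TAC replicate 2 and WT TAC replicate 2, r was 0.26 (exact permutation p = 0.721), so the relation did not hold with both probes. Over baseline arrays r was 0.57 and rho 0.43 (exact permutation p = 0.147 and 0.299, adjusted p = 0.294 and 0.598). Without WT baseline replicates 1 and 2 that r was 0.88 (exact permutation p = 0.0292).

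**Figure D3:**
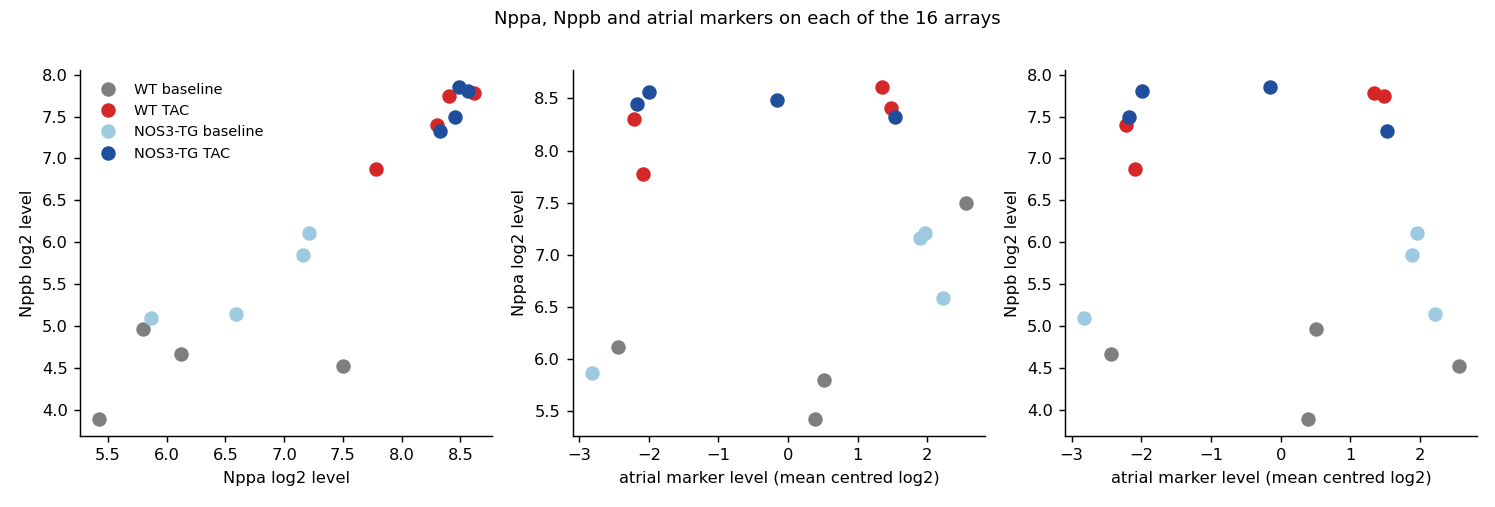
Left, Nppb against Nppa log2 level on each of the 16 arrays. Middle and right, Nppa and Nppb log2 level against the atrial marker level (mean centred log2 level of 7 markers). Colours give the group. TAC arrays lie above baseline arrays over the whole range of atrial level, and the WT baseline array with the highest atrial level, 2.56, has the highest Nppa level at baseline, 7.50.

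Nppc encodes C-type natriuretic peptide, which in most tissues comes from endothelium and cartilage and signals through Npr2. Its probe was near the floor of the array. It was well above background on 2 of 4 arrays in each TAC group and on none of the 8 baseline arrays. The log2 levels in WT were -5.60, -6.46, -6.17 and -5.32 at baseline and -3.80, -5.20, -3.31 and -4.46 after TAC. In NOS3-TG they were -5.35, -5.13, -6.23 and -5.98 at baseline and -4.02, -4.91, -4.95 and -3.96 after TAC. TAC arrays lay above baseline arrays in both genotypes, with values not well above background in every group.

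Baseline arrays give only a bound for Nppc, and in each TAC group only 2 of 4 arrays were well above background. A TAC mean that includes undetected arrays gives no lower limit of the difference, so no fold is given for either genotype. The adjusted p of 0.00864 in WT (limma, 0.342 with normexp background correction) supports nothing, since Nppc entered the test only through the TAC arrays. In NOS3-TG the TAC mean of Nppc also lay under the mean baseline bound, at -4.46 against -3.88.

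Neither guanylyl cyclase receptor gave a TAC difference past the test, and Npr1 could not be tested. Npr1, the receptor of the Nppa and Nppb peptides, had 1 probe, well above background on 1 array, NOS3-TG TAC replicate 4, the array with the largest share of probes above background. Its log2 levels ran from -6.35 to -5.20 in WT baseline, -5.29 to -4.55 in WT TAC, -6.00 to -5.15 in NOS3-TG baseline and -5.84 to -4.40 in NOS3-TG TAC. These are levels at the floor of the array and carry no fold.

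Npr2, the receptor of C-type natriuretic peptide, was well above background on all 16 arrays. Its log2 levels in WT were 2.09, 2.29, 2.21 and 2.29 at baseline and 2.31, 2.08, 2.02 and 1.96 after TAC. In NOS3-TG they were 2.17, 1.82, 2.19 and 2.15 at baseline and 1.74, 2.05, 1.88 and 1.95 after TAC. The groups overlapped in both genotypes. TAC differences were -0.13 ± 0.11 (adjusted p = 0.392, limma) in WT and -0.18 ± 0.11 (adjusted p = 0.29) in NOS3-TG. A dim further Npr2 probe pointed the other way, at 0.07 and 0.28 (adjusted p = 0.869 and 0.52).

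Npr3, the clearance receptor, also binds the peptides but lacks the cyclase domain and removes them by uptake. In WT its log2 levels were 0.61, 0.42, 0.27 and 0.58 at baseline and 0.49, 0.28, 0.87 and 0.80 after TAC. In NOS3-TG they were 0.44, 0.28, 0.22 and 0.52 at baseline and 0.88, 0.93, 0.83 and 0.63 after TAC. WT groups overlapped, with 2 TAC arrays inside the baseline range, while the 4 NOS3-TG TAC arrays all lay above their baseline arrays.

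TAC raised Npr3 in NOS3-TG by 0.45 ± 0.14, or 1.37-fold (adjusted p = 0.0466, limma), and the WT difference was 0.14 ± 0.14 (adjusted p = 0.48). The difference between the genotypes' TAC effects was 0.31 ± 0.19 (adjusted p = 0.722, limma), so the genotypes are not shown to differ. The NOS3-TG call sat at the threshold. It was lost in 12 of the 16 fits that leave out 1 array and in 9 of 16 other alternatives, with adjusted p up to 0.173 with the scan day in the fit. The other 2 Npr3 probes gave 0.31 and 0.67 (adjusted p = 0.143 and 0.138) in NOS3-TG.

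Corin, the transmembrane protease of cardiomyocytes that activates the Nppa precursor, was well above background on all arrays. Its log2 levels in WT were 3.53, 3.59, 3.13 and 3.64 at baseline and 3.07, 3.55, 3.08 and 2.85 after TAC. In NOS3-TG they were 3.10, 3.26, 3.30 and 3.48 at baseline and 2.53, 3.54, 2.64 and 3.12 after TAC. TAC means lay below baseline means in both genotypes, by -0.34 ± 0.17 in WT and -0.33 ± 0.17 in NOS3-TG, with overlapping groups, and neither passed the test (adjusted p = 0.162 and 0.237, limma).

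Furin, the convertase of the Golgi that cuts many precursors including those of Nppb and Nppc, was well above background on all arrays. In WT its log2 levels were 3.78, 3.85, 3.53 and 3.73 at baseline and 3.83, 3.76, 3.31 and 3.68 after TAC. In NOS3-TG they were 3.62, 3.89, 3.47 and 3.84 at baseline and 3.33, 3.77, 3.43 and 3.58 after TAC. The TAC differences of -0.08 ± 0.11 in WT and -0.17 ± 0.11 in NOS3-TG did not pass the test (adjusted p = 0.623 and 0.324, limma). A second probe, listed under the older name 9130404I01Rik, was not well above background on any array.

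**Figure D4:**
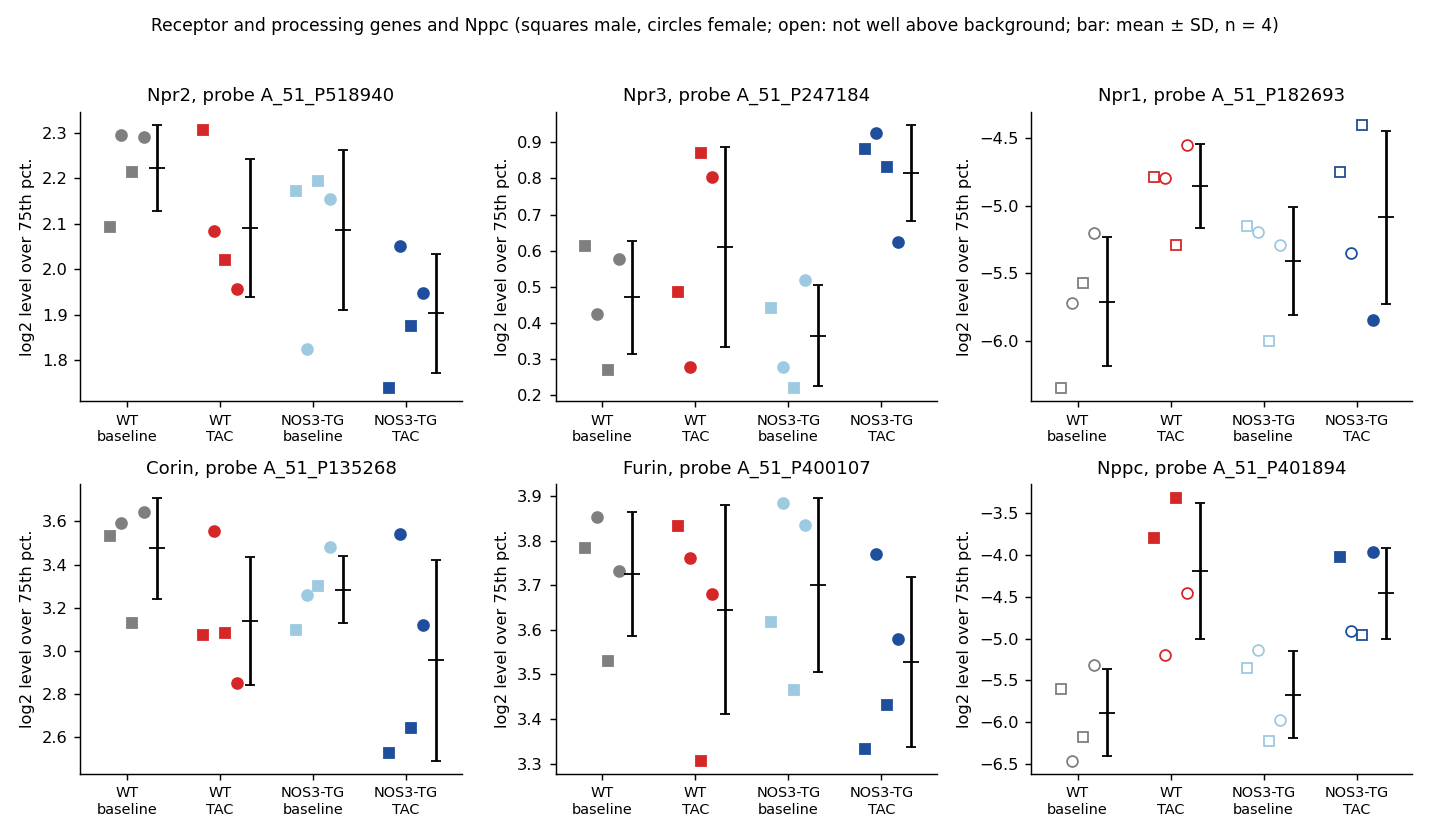
Log2 level (over the 75th percentile of the array) of Npr2, Npr3, Npr1, Corin, Furin and Nppc on each array, by group, each panel with its own axis range. Squares are males, circles are females, open symbols are not well above background, and bars give the mean ± SD of 4 arrays. Npr3 in NOS3-TG separates TAC from baseline arrays. Nppc does so as well, but it passed the background limit only through TAC arrays. Npr1 has 1 filled symbol.

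The genotype comparisons asked whether cardiomyocyte NOS3 altered the system with and without load. At baseline no member passed the test (limma, 0 of 7, with 1 at an unadjusted p under 0.05), where 0.415% of all genes were called and 12.3% had an unadjusted p under 0.05. Nppb came nearest. Its 4 NOS3-TG baseline arrays, 5.14, 6.10, 5.09 and 5.85, all lay above the 4 WT arrays, which reached 4.96, and groups lay so in 3.89% of all genes.

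The baseline difference of Nppb was 1.04 ± 0.29 on the log2 scale, or 2.05-fold (adjusted p = 0.155, limma). Over the alternatives its adjusted p ran from 0.0881 to 0.573. Within the 2 baseline slides it was 1.42 and 0.66. Females differed more than males on both slides, with 2.22 and 1.19 against 0.62 and 0.13, each from 1 array per genotype, so no test was made. With the atrial marker level in the fit it was 1.00 (adjusted p = 0.183). The Nppa difference was 0.50 ± 0.39 (adjusted p = 0.621), with overlapping groups.

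After TAC no member passed the test (limma, 0 of 7, none at an unadjusted p under 0.05), where 0.281% of all genes were called and 12.3% had an unadjusted p under 0.05. Nppb differed by 0.17 ± 0.29, Nppa by 0.18 ± 0.39, Npr3 by 0.21 ± 0.14 and Corin by -0.18 ± 0.17, and the groups overlapped for each. Leaving out WT TAC replicate 2, the lowest TAC array for Nppb, turned the Nppb difference to -0.03.

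The smaller Nppb rise in NOS3-TG than in WT, 2.08 against 2.94, was tested as an interaction. It was -0.87 ± 0.41 (adjusted p = 0.679, limma) with the first probe and -0.95 ± 0.41 (adjusted p = 0.679) with the second. The Nppa interaction was -0.32 ± 0.56 (adjusted p = 0.895). None of the 15669 genes passed the interaction test, and 7.44% had an unadjusted p under 0.05, none of them a tested member by the probe that stands for it. The second Nppb probe and a second Npr3 probe (0.42 ± 0.18, adjusted p = 0.68) had an unadjusted p under 0.05. A difference in the TAC response between genotypes was thus not detected for any of the 7 members.

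Male and female hearts were compared over all 4 groups. No member passed (limma, 0 of 7, with 2 at an unadjusted p under 0.05), where 1.33% of all genes were called and 15.9% had an unadjusted p under 0.05. The 2 were the processing proteases. The atrial marker level split by sex after TAC, as given above. Male minus female was -0.33 ± 0.12 for Corin (adjusted p = 0.196) and -0.23 ± 0.08 for Furin (adjusted p = 0.168), with male means below female means in all 4 groups for both. Corin males averaged 2.59 and females 3.33 in NOS3-TG TAC, the widest gap of the 4 groups. Nppa and Nppb differed between the sexes by 0.07 ± 0.28 and 0.04 ± 0.20. The sex by TAC interaction called no member and no gene of 15668 (limma, none of the 7 at an unadjusted p under 0.05, against 11.3% of all genes).

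Mme, the gene of the main peptide-degrading protease, fell with TAC in both genotypes. Of 9 listed genes of peptide breakdown, decoy ligand and other convertases, all tested, 1 rose and 3 fell with TAC in WT, and none rose and 1 fell in NOS3-TG. Of all genes 28.4% and 11.8% were called, so the 1 of 9 in NOS3-TG is near that share. The median difference was -0.18 in WT and -0.22 in NOS3-TG. Mme, neprilysin, fell by 1.80 ± 0.31 on the log2 scale in WT (adjusted p = 0.00134, limma) and by 1.24 ± 0.31 in NOS3-TG (adjusted p = 0.0218). It was dim after TAC, at mean log2 levels of -3.18 in WT and -3.29 in NOS3-TG. Only 3 NOS3-TG TAC arrays were well above background for Mme, so the size of that fall is uncertain. In both genotypes all TAC arrays lay below all baseline arrays for Mme, as for 17.3% of all genes in WT and 7.45% in NOS3-TG. Ostn, osteocrin, a decoy ligand of Npr3, was also called lower in WT (adjusted p = 0.0164). It was well above background on 2 of 4 baseline arrays and on no TAC array, and its bound lies under 1, so no fold is given. In WT Dpp4, which trims B-type peptide, fell by 1.06 (adjusted p = 0.011), and Pcsk5, another convertase, rose by 0.68 (adjusted p = 0.0217).

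Downstream of the receptors, 10 of 16 listed genes of cyclic GMP effectors and breakdown were tested. In WT 3 rose and 2 fell with TAC, at a median of -0.13, and in NOS3-TG 1 rose and none fell, at a median of 0.05, where 28.4% and 11.8% of all genes were called. The 1 of 10 in NOS3-TG is near that share. Pde9a, a phosphodiesterase of cyclic GMP that hydrolyses the natriuretic peptide pool, rose by 0.62 in WT (adjusted p = 0.0134, limma). Vasp, a substrate of the cyclic GMP kinase, rose by 0.53 (adjusted p = 0.00729). Pde1c rose in both genotypes, by 0.52 (adjusted p = 0.00712) and 0.59 (adjusted p = 0.00781). Rgs2, which dampens Gq signalling and is a target of the kinase, fell by 1.12 (adjusted p = 0.00794), and Gucy1a1, a subunit of the nitric oxide receptor, fell by 0.67 (adjusted p = 0.0409). In the genotype comparisons no gene of either list passed.

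The 26 listed regulators of Nppa and Nppb transcription were all tested. With TAC in WT 3 rose and 8 fell, at a median of -0.15, and in NOS3-TG none rose and 3 fell, at a median of -0.13. Among all genes 10.9% were called higher and 17.6% lower in WT, and 6.46% higher and 5.35% lower in NOS3-TG. The 3 of 26 that rose in WT are near the share of all genes. The 8 of 26 that fell in WT and the 3 of 26 that fell in NOS3-TG lie above theirs, which was not tested. Of the GATA factors, whose core letters are in both promoters, neither was called higher: Gata4 differed by 0.02 in WT (adjusted p = 0.955) and 0.07 in NOS3-TG (adjusted p = 0.86), and Gata6 fell by 0.32 (adjusted p = 0.0196) and 0.40 (adjusted p = 0.0156). Nkx2-5 differed by -0.06 and 0.07 (adjusted p = 0.635 and 0.648). Among those that rose in WT were Tbx20, by 0.52 (adjusted p = 0.00433), Nfatc4, a calcineurin target, by 0.48 (adjusted p = 0.00414), and Tead1, which binds CATTCC, by 0.38 (adjusted p = 0.00972).

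The largest falls among the regulators in WT were Fos, by 1.02 (adjusted p = 0.0187), Klf15, a repressor of hypertrophic genes, by 0.74 (adjusted p = 0.0263), Mef2d, by 0.68 (adjusted p = 0.00198), and Tbx5, an atrial marker as well, by 0.68 (adjusted p = 0.0134). In NOS3-TG Hdac4, a class II deacetylase that represses Mef2, fell by 0.56 (adjusted p = 0.0138), beside Mef2d, by 0.41 (adjusted p = 0.0484). Hdac4 was called lower in WT too, at a mean log2 level of 0.885 after TAC against 1.377 at baseline. Fos also was the only regulator called between the genotypes, with a NOS3-TG minus WT difference of -1.80 at baseline (adjusted p = 0.0155, limma). Only 3 NOS3-TG baseline arrays were well above background for Fos, at a group mean of -3.27, so the size of that difference is uncertain. mRNA levels say nothing of the activity of these factors.

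Around the pair on chromosome 4, most neighbouring genes did not pass the test. Of 9 neighbours with a probe, 5 on the Nppb side and 4 on the Nppa side, 1 rose and 1 fell with TAC in WT, and 1 rose in NOS3-TG, no more than the 28.4% and 11.8% called over all genes. The riser was Clcn6, a chloride transporter gene and the next gene after Nppa, by 0.67 (adjusted p = 0.0127, limma) in WT and 0.73 (adjusted p = 0.0188) in NOS3-TG. Clcn6 was dim, with baseline and TAC mean log2 levels of -3.55 and -2.88 in WT and -3.54 and -2.81 in NOS3-TG. It was well above background on only 3 NOS3-TG baseline arrays. Miip, the farthest on the Nppb side, fell by 0.41 in WT (adjusted p = 0.0444). The other 7 neighbours did not pass in either genotype, with differences from -0.29 to 0.34 in WT and -0.13 to 0.20 in NOS3-TG. No gene with a probe lies between Nppb and Nppa.

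**Figure D5:**
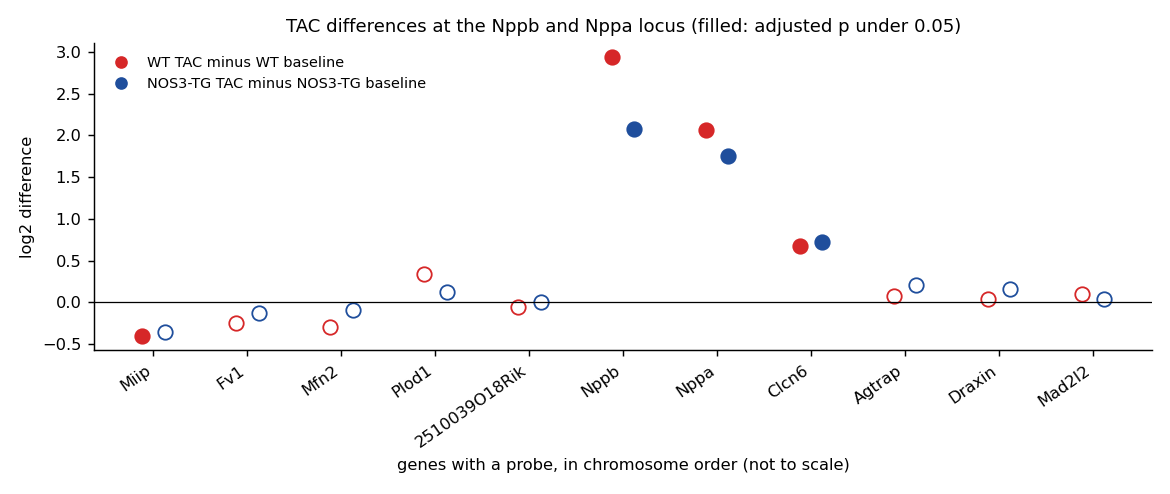
Log2 difference, TAC minus baseline, of Nppb, Nppa and 9 neighbouring genes with a probe, in chromosome order and not to scale. Red is WT, blue is NOS3-TG, and filled points have an adjusted p under 0.05. Nppb and Nppa stand at 1.75 to 2.94, Clcn6 at 0.67 and 0.73, and the other neighbours between -0.41 and 0.34.

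The genes whose levels followed a member most closely over the 16 arrays were listed by Pearson r among all genes tested, as a description, since the arrays share the 4 groups. For Nppb they were Tnfrsf12a, the receptor of the cytokine Tweak (r = 0.966), Pphln1 (0.965), Krt80 (0.962), Plekho1 (0.955) and Lman1l (0.955). For Nppa they were Cep20 (0.932), Met, the hepatocyte growth factor receptor (0.931), Tnfrsf12a (0.923), Nppb (0.920) and Eif1a (0.920). Seen from Nppb, Nppa was the 34th closest gene. For Nppc, mostly at the floor, Ccn2 was among the 3 closest (0.909).

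For the other members the closest genes were Bace2 for Npr3 (r = 0.840), Ablim3 for Npr2 (0.914), Ppp1r3a for Corin (0.938) and Man2a1 for Furin (0.881). Npr3 ran with the peptides, at r = 0.703 with Nppa and 0.590 with Nppb, while Corin ran against Nppb at -0.587 and Npr2 against Nppa at -0.624. Corin and Furin had r = 0.671, and 0.598 once each group's mean was taken away, a step that leaves in the lower male means of both genes. The same step left 0.563 for Nppa with Nppb and 0.502 for Nppa with Npr3, but 0.193 for Nppb with Npr3, -0.260 for Nppb with Corin and -0.428 for Nppa with Npr2.

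Levels of marker genes for other cell types moved with TAC too. The ventricular cardiomyocyte list (9 of 9 tested) ranged from 0.00 to 0.28 in WT baseline against -0.27 to 0.07 in WT TAC, and from -0.11 to 0.19 against -0.36 to 0.07 in NOS3-TG, as mean centred log2 levels. The endothelial list (8 of 8) ranged from -0.11 to 0.01 against 0.14 to 0.33 in WT, and from -0.39 to -0.02 against -0.11 to 0.09 in NOS3-TG. The fibroblast list (9 of 9) ranged from -0.50 to 0.09 against -0.02 to 0.43 in WT, and from -0.46 to 0.09 against -0.13 to 0.37 in NOS3-TG. The smooth muscle and pericyte list (8 of 8) ranged from 0.11 to 0.74 against -0.32 to 0.07 in WT, and from -0.27 to 0.16 against -0.45 to -0.17 in NOS3-TG. The Schwann cell list (2 of 3) ranged from 0.57 to 1.13 against -0.78 to -0.11 in WT, and from -0.50 to 0.86 against -0.92 to -0.45 in NOS3-TG. The adipocyte list (3 of 4) ranged from -1.06 to 2.67 against -2.02 to -0.51 in WT, and from -2.32 to 1.77 against -1.16 to 1.38 in NOS3-TG. The macrophage list (6 of 6) ranged from -0.55 to -0.41 in WT baseline and -0.41 to 0.15 in WT TAC. With TAC in WT 3 of 6 macrophage, 4 of 8 endothelial and 3 of 9 fibroblast genes were called higher, against 10.9% of all genes. None of the genes on those lists was called lower there. Called lower in WT were 2 of 9 ventricular cardiomyocyte and 2 of 8 smooth muscle and pericyte genes, and 1 of these 8 was called higher. Also lower were 2 of 2 Schwann cell and 1 of 3 adipocyte genes, against 17.6% of all genes. In NOS3-TG the macrophage, endothelial and fibroblast lists each had 1 gene called higher and none lower, against 6.46% higher over all genes. There 1 smooth muscle and pericyte gene rose and 1 fell, and 1 Schwann cell gene fell. In NOS3-TG the macrophage list ranged from 0.08 to 0.37 at baseline, above WT, and from 0.04 to 0.59 after TAC. At baseline 2 of its 6 genes were called higher in NOS3-TG than in WT, against 0.415% of all genes called, beside the Nppb difference. The part of these shifts in the results was not tested. In whole tissue, fewer cells of a type and less RNA per cell cannot be told apart.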

How the data were processed

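RNA from 16 mid-ventricular tissue samples was labelled with Cy3 and read on 1-colour Agilent arrays. Per the file headers, the authors' scanner files hold spot intensity from Agilent Feature Extraction 9.5.1.1, background-subtracted and detrended within each array. The deposited value table holds log2 values for 22057 probes, with its scaling and centring unknown. It was set against the scanner values (r of at least 0.9995 per array, column medians 9.95 to 9.99) and served as an alternative. Gene names came from GRCm38.p6 RefSeq: 22951 probes by accession, 9768 by symbol or synonym, and 8455 kept the file's name. The sources used here name no build for the files' coordinates, so none are printed. An Lrp4 name, an older synonym of Corin, was left out, since those probes belong to another gene by accession.

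The log2 processed signal minus the array's 75th percentile was analysed after leaving out 1639 control spots and outlier spots, averaging spots of a probe. Probes well above background on at least 4 of 16 arrays were kept (23068), and each gene was read from its probe of highest mean level. limma 3.58.1 (R 4.3.3) fitted 4 group means plus sex on all 16 arrays, two-sided, with Benjamini-Hochberg adjustment over 15669 genes and a call at 0.05. The sex by TAC interaction came from a mean per group and sex. Nppb minus Nppa and the difference between the Nppa probes used exact permutation tests (scipy 1.17.1). Correlations used exact permutation over all pairings of arrays. The fit was tested on simulated data. Samples were biological repeats, per the labels, and replicate numbers follow accession order.

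All 8 members, Nos3, the pathway, regulator and marker lists, 9 neighbours and the closest genes were named, and 1 item is not reported here. At most 4 called genes of a pathway list were named per comparison, by size. Gata4, Gata6 in WT, Nkx2-5, Tbx20, Nfatc4, Tead1, Hdac4 in WT and Pde1c in WT were added after their values were seen. The members and lists were chosen with earlier results of these data known. Alternatives were quantile normalization, normexp with an offset of 50, the authors' values, other filters and probes, array weights, variance trend, no sex term, compared groups alone, slide and scan day, and leaving out arrays. The number of arrays limits the precision.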

Additional observations from a re-analysis of the deposited data

Results flagged for a closer look

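Npr2 in NOS3-TG baseline replicate 2 lay apart from its group, at a log2 level of 1.82 against 2.15, 2.17 and 2.19 on the other 3 arrays. The gap took up 0.889 of the group's range. The array is 1 of the 3 far in share of probes above background, at 44.8%. 28 groups of 4 arrays were screened, and chance alone marks about 1 in 20.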

How the results depend on the processing

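Nppb rose with TAC in both genotypes under every alternative, by 2.65 to 3.05 in WT and 1.74 to 2.36 in NOS3-TG, and when each of the 16 arrays was left out in turn, by 2.73 to 3.15 and 1.90 to 2.29. Nppa in WT kept its call throughout, at 1.98 to 2.97 and, with single arrays left out, 1.79 to 2.52. Of 769 recomputed single values, 729 kept direction and side of the threshold, 24 lost the call, 8 gained it and 8 reversed, besides 2 values of Nppb minus Nppa. The number of members called with TAC in NOS3-TG fell from 3 to 1 with the scan day in the fit and without the 3 far arrays, and ran from 2 to 4 with single arrays left out. In WT it stayed at 3 with single arrays left out and was 2 with normexp. These counts include Nppc, which entered the test only through TAC arrays and had to differ. Nppc is 1 of the 3 in WT, and in NOS3-TG it gained the call in 2 of the 16 fits that leave out 1 array. Between the sexes 1 member instead of 0 was called with array weights (Corin), and 0 to 1 with single arrays left out (Furin without WT TAC replicate 1, Corin without WT TAC replicate 4). Nppa with Nppb, without the 2 arrays farthest in Nppa, gave r = 0.88 at baseline and 0.81 after TAC, and with the second Nppa probe 0.82 and 0.26.

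The reversed values lay mostly near 0. Furin in WT TAC was 0.004 with quantile normalization, 0.007 with the scan day and -0.19 to 0.002 with single arrays left out. Npr3 between genotypes at baseline was 0.017 with array weights, and in WT TAC -0.11 on another probe. Nppb between genotypes after TAC ran from -0.032 to 0.286 with single arrays left out. Npr2 on its dim probe was 0.07 and 0.279. Nppb minus Nppa with the other Nppa probe was -0.024 in WT and -0.758 in NOS3-TG. The cause was not tested.

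Over all genes the number called with TAC was 4457 in WT and 2695 to 5348 under alternatives, and 1851 in NOS3-TG and 401 to 2917. Between genotypes it was 65 and 24 to 355 at baseline, and 44 and 2 to 91 after TAC, and between the sexes 208 and 24 to 647. The interactions called 0 genes, and up to 1 for genotype by TAC and 129 for sex by TAC.

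Nppc and Npr1 are limited by signal over background and were not in the analysis of the authors' values. Baseline and TAC arrays lie on separate slides. The labels give no replicate numbers. Baseline and TAC arrays came from different animals, with no pairing in the labels. With slide as a block, since slides hold both genotypes, no member was called between genotypes (adjusted p = 0.174 for Nppb at baseline).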
